A study of Mus musculus with 5 samples.

Results

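The genes described here are 7 genes of cholesterol synthesis, *Srebf2*, *Hmgcs1*, *Idi1*, *Fdft1*, *Sqle*, *Lss* and *Dhcr7*, among 78334 genes counted in 5 RNA libraries labelled as mouse visceral fat. They were chosen by name from the pathway, each was found by its Ensembl ID, and all 7 passed the filter on low counts, with 217 to 8456 counts per library. The 7 are enzymes and their transcriptional regulator, and genes of cholesterol uptake are described from a separate list further on. All mice were male C57BL/6. Control 1 came from standard chow with vehicle. Diabetes 1 and diabetes 2 came from mice injected at 2 days of age with 70 mg/kg of streptozotocin, which destroys pancreatic beta cells. From 3 weeks of age these mice ate a high-fat diet with 60% of its energy from fat for 8 weeks, and they received vehicle. Curcumin-treated 1 and curcumin-treated 2 came from mice with the same diabetes model that were gavaged daily with curcumin, a polyphenol of turmeric, at 50 mg/kg, starting at 11 weeks of age and lasting 28 days. Whether control pups were injected is not stated. Neither is it stated that replicate libraries represent different animals, and the p-values therefore reflect only library-to-library spread, possibly technical.

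Cholesterol is built from acetyl-CoA through mevalonate, isoprenoid units, squalene and lanosterol. The transcription factor SREBP2, encoded by *Srebf2*, is held in the endoplasmic reticulum by SCAP and the INSIG proteins while sterols are plentiful, and is cut free and raises the genes of this chain when sterols run low. White adipocytes store large amounts of free cholesterol, most of it taken up from lipoproteins, and synthesise comparatively little.

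The tissue markers of the libraries differed within groups, and this bears on every comparison below. Adipocyte markers (12 genes, among them *Adipoq*, *Lep* and *Plin1*) took 4.10% of the counts of diabetes 2, 0.475% of curcumin-treated 1 and 0.0191% to 0.0635% of the other 3 libraries, and *Pparg* and *Retn* were at 0 in diabetes 1. The epididymis is a duct that lies against the gonadal fat. Markers of its epithelium (15 genes) took 7.80% of control 1, 7.55% of diabetes 1 and 11.4% of curcumin-treated 2. They took 0.602% of curcumin-treated 1, where *Crisp1* alone held 165926 of their 167378 counts, more than in any other library. The other markers of this list held 2 to 545 counts each in curcumin-treated 1. In diabetes 2 the 15 markers held 9 counts in all, and 12 of them were at 0. Smooth muscle markers (10 genes) took 4.48% of curcumin-treated 1 and 0.109% to 0.250% of the others, with curcumin-treated 2 at 0.2185% and control 1 at 0.250%. Of the 10, 8 were higher by CPM in both curcumin-treated libraries than in both diabetic ones, against 17.9% of the 29855 genes tested. Macrophage markers (8 genes) took 0.268% of diabetes 2 and 0.0156% to 0.0499% of the others. Markers of steroid-making cells (5 genes) and of endothelium (5 genes) took at most 0.00488% and 0.0240% of a library. Total counts ran from 25378046 to 42422890. In such bulk libraries, fewer cells of a type and less RNA per cell cannot be told apart. The part of these tissue differences in the sterol gene values was not tested.

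Promoter windows are shown for a gene highest in diabetes 2 (*Hmgcs1*), another of the same kind (*Lss*) and the regulator itself, which was lowest there (*Srebf2*). Each window runs from 250 bases before to 50 bases after the transcription start, 5′ to 3′ on the + strand, from RefSeq on GRCm38.p6. The windows are chr13:119690101-119690400 for *Hmgcs1*, chr10:76531355-76531654 for *Lss* and chr15:82147019-82147318 for *Srebf2*. Capitals mark matches, on either strand, to TCACNCCAC, a form of the sterol regulatory element that SREBP2 binds, and to CCAAT, the box bound by NF-Y, which works alongside SREBP2. No match of one motif overlapped a match of the other.
Hmgcs1: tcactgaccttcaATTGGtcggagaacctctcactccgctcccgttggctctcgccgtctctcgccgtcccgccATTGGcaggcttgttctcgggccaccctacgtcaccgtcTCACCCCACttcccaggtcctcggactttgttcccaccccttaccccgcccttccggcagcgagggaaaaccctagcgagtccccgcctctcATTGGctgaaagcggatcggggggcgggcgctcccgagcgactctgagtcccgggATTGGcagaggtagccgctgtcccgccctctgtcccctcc
Lss: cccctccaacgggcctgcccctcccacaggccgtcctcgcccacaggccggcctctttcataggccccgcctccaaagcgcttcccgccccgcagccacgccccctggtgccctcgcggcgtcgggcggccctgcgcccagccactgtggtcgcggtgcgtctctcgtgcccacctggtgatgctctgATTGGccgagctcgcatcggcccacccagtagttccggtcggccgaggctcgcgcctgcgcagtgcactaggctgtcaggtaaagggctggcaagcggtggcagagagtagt
Srebf2: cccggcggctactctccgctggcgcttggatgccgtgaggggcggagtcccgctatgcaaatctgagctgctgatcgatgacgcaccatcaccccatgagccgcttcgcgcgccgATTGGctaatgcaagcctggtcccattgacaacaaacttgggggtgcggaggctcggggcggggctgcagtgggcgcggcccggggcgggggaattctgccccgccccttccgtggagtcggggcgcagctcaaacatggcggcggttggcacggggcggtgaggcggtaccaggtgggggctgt
The *Hmgcs1* window held 1 match to TCACNCCAC and 4 to CCAAT. Those of *Lss* and *Srebf2* each held 1 CCAAT match and none to TCACNCCAC. Of 32851 mouse windows of this length, 1.24% held TCACNCCAC and 37.4% held CCAAT. Windows were at hand for 5 of the 7 genes, all but *Sqle* and *Fdft1*, and 5 of these 5 held CCAAT in at least 1 window and 1 held TCACNCCAC. Among 13 other cholesterol synthesis genes with a window, 11 held CCAAT and 0 held TCACNCCAC. These are counts of genes, while the shares above are of windows. *Dhcr7* and *Pmvk* had more than 1 window, and not all of theirs held CCAAT. A match is a string of letters and does not show that a factor binds there.

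The 7 genes did not move together, and diabetes 2 stood apart from the other 4 libraries, diabetes 1 included. Diabetes 2 was the lowest of the 5 libraries for *Srebf2*, *Fdft1* and *Sqle* and the highest for *Hmgcs1*, *Lss*, *Idi1* and *Dhcr7*. Diabetes 2 was thus at an extreme for 7 of 7 genes, against 52.2% of the 29855 genes tested, 22.0% at the highest place and 30.2% at the lowest. For *Idi1* its lead over control 1 was within counting error. Levels are given as CPM, the count divided by the library total and multiplied by 1000000.

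*Srebf2*, the gene of the SREBP2 regulator, stood at 199.95 CPM in the control, 234 and 42.5 CPM in diabetes 1 and 2, and 168 and 199 CPM in curcumin-treated 1 and 2. Diabetes 2 alone was low, 5.51 times below diabetes 1, and the other 4 libraries lay close together. Both curcumin-treated libraries fell between the diabetic ones, so the groups overlapped.

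*Hmgcs1*, the synthase that joins acetoacetyl-CoA and acetyl-CoA at the head of the mevalonate pathway, stood at 101 CPM in the control, 117 and 270.4 CPM in diabetes 1 and 2, and 72.1 and 91.6 CPM in curcumin-treated 1 and 2. Both diabetic libraries lay above the control and both curcumin-treated ones below it, so no groups overlapped. The gap between the nearest libraries of the diabetic and curcumin-treated groups exceeded counting error, with a 95% exact Poisson interval of 113 to 121 CPM in diabetes 1 and 88.7 to 94.5 CPM in curcumin-treated 2.

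*Idi1*, the isomerase that makes the reactive isoprenoid unit dimethylallyl diphosphate, varied least of the 7, at 22.5 CPM in the control, 19.4 and 24.0 CPM in diabetes 1 and 2, and 18.6 and 17.2 CPM in curcumin-treated 1 and 2. Its highest and lowest libraries differed 1.40-fold. The Poisson intervals of the highest, diabetes 2, and of control 1 overlapped (22.1 to 25.9 and 20.8 to 24.4 CPM). The curcumin-treated libraries lay below the diabetic ones, but the nearest pair had overlapping Poisson intervals (17.8 to 21.2 CPM in diabetes 1 and 17.1 to 20.3 CPM in curcumin-treated 1).

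*Fdft1*, the squalene synthase that commits the chain to sterols, stood at 149 CPM in the control, 173 and 43.6 CPM in diabetes 1 and 2, and 102 and 163 CPM in curcumin-treated 1 and 2. Its order resembled that of *Srebf2*, with diabetes 2 3.97 times below diabetes 1. In the GENCODE M21 annotation, 774 exon bases of *Fdft1* overlap *Ctsb*, the cathepsin B gene on the opposite strand. *Ctsb* held 124728 counts in diabetes 2 and 11171 to 23487 in the others. The strand setting of the counting is not given in the sources used here, so the *Fdft1* counts carry that uncertainty.

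*Sqle*, the squalene epoxidase and a slow step of the pathway, stood at 55.0 CPM in the control, 69.9 and 20.0 CPM in diabetes 1 and 2, and 54.1 and 39.2 CPM in curcumin-treated 1 and 2. Diabetes 2 was again low, 3.49 times below diabetes 1, and both curcumin-treated libraries lay between the diabetic ones.

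*Lss*, the lanosterol synthase that closes the sterol rings, stood at 51.4 CPM in the control, 32.4 and 70.8 CPM in diabetes 1 and 2, and 24.9 and 32.2 CPM in curcumin-treated 1 and 2. The diabetic libraries lay on either side of the control. The curcumin-treated libraries were lower than both, but diabetes 1 and curcumin-treated 2 did not differ beyond counting error, with Poisson intervals of 30.2 to 34.7 and 30.5 to 33.9 CPM.

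*Dhcr7*, the reductase that makes cholesterol from 7-dehydrocholesterol, stood at 9.18 CPM in the control, 9.04 and 43.3 CPM in diabetes 1 and 2, and 16.6 and 5.12 CPM in curcumin-treated 1 and 2. The order of the libraries with the highest levels, diabetes 2 and then curcumin-treated 1, was also that of the adipocyte, macrophage and endothelial marker shares. The lowest library differed, being curcumin-treated 2 for *Dhcr7* and diabetes 1 for each of these marker shares. Its highest and lowest libraries differed 8.46-fold, the widest range of the 7.

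**Figure D1:**
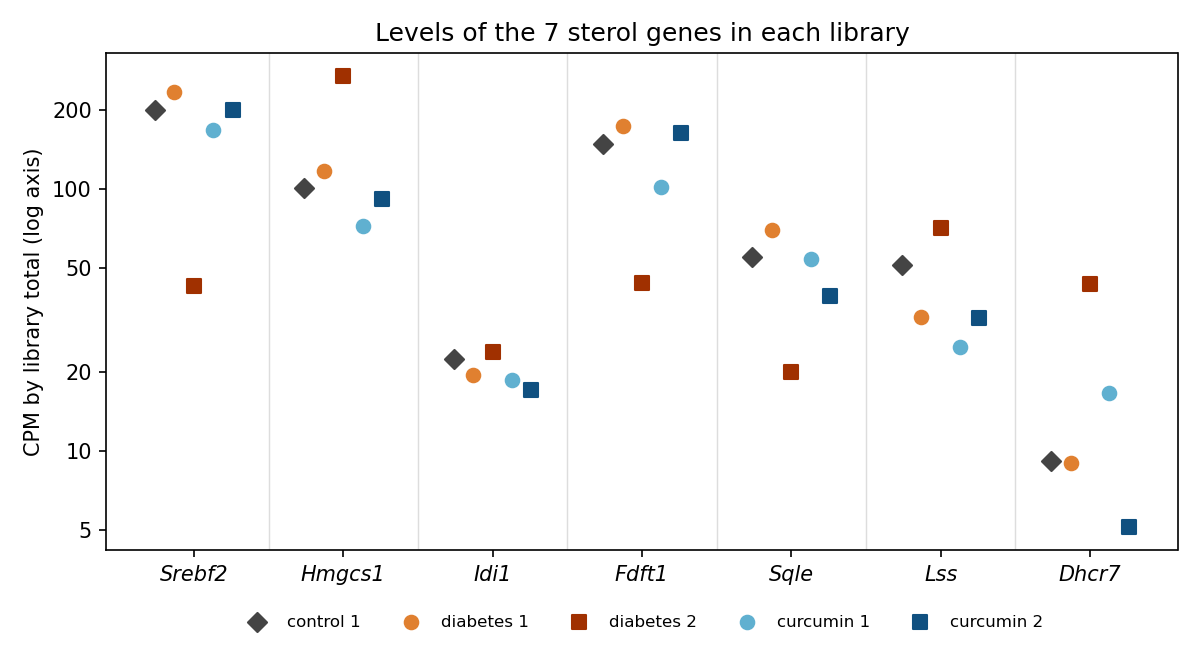
CPM by library total (log axis) of each of the 7 genes, 1 point per library, with the control as a diamond, replicate 1 as a circle and replicate 2 as a square. Diabetes 2 is the lowest point for *Srebf2*, *Fdft1* and *Sqle* and the highest for the other 4 genes, and *Idi1* spans only 17.2 to 24.0 CPM.

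The summed level of the 7 genes varied little beside this rearrangement. They took 0.0588% of the counts of control 1 (95% Wilson interval 0.0579% to 0.0597%), 0.0655% (0.0645% to 0.0665%) and 0.0514% (0.0506% to 0.0523%) in diabetes 1 and 2, and 0.0456% (0.0448% to 0.0464%) and 0.0548% (0.0541% to 0.0555%) in curcumin-treated 1 and 2. How the sum was divided differed in diabetes 2. *Hmgcs1* made up 52.6% of it there and 15.8% to 17.9% in the other 4 libraries. *Srebf2* made up 8.26% there and 34.0% to 36.8% elsewhere, *Fdft1* 8.48% against 22.3% to 29.8%, and *Dhcr7* 8.41% against 0.934% to 3.65%.

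**Figure D2:**
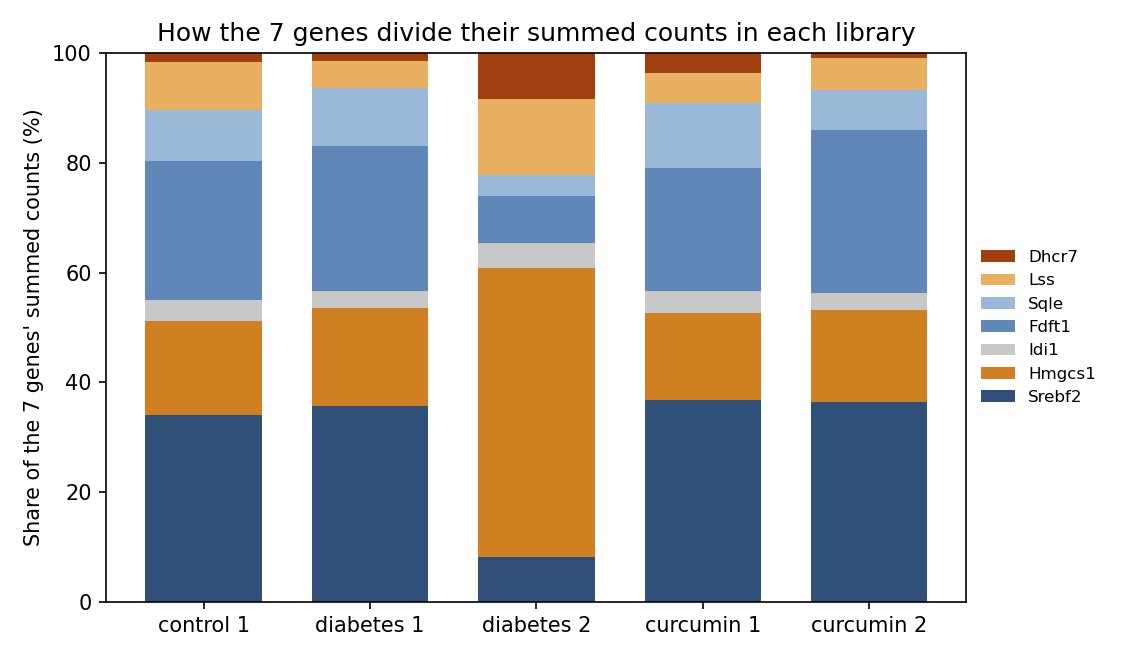
Stacked bars of the share (%) that each of the 7 genes holds of their summed counts in each library, not corrected for gene length. The bars of 4 libraries are alike, while in diabetes 2 *Hmgcs1* holds 52.6% and *Srebf2* 8.26%.

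Between the 2 diabetic libraries, 6 of the 7 genes differed at least 2-fold, *Idi1* being the exception, against 63% of all tested genes. Between the 2 curcumin-treated libraries only *Dhcr7* did, 1 of 7 against 52.9%. Between control 1 and diabetes 1 it was 0 of 7 against 39.5%, and between control 1 and curcumin-treated 2 it was 0 of 7 against 38.1%. Control 1, diabetes 1 and curcumin-treated 2 belong to 3 different groups and had the 3 highest epididymal marker shares. Among the 7, the closest pair of profiles was *Srebf2* and *Fdft1*, with a root-mean-square difference of 0.24 in centred log2(CPM + 1) over the 5 libraries. *Hmgcs1* and *Lss* followed at 0.34, and *Srebf2* and *Dhcr7* were farthest apart at 1.82. The average profile of the 7 was nearly flat, from −0.17 in curcumin-treated 2 to 0.17 in diabetes 1, with high and low values offsetting each other. The genes closest to that average among 11126 named, well-detected genes were accordingly flat ones. They were *Mkln1* at a difference of 0.03, *Fut11* at 0.03, *Otulin* at 0.04, *Zfp451* at 0.04 and *Cul3*, a ubiquitin ligase scaffold, at 0.05. *Mkln1* ran from 58.3 CPM in curcumin-treated 2 to 76.8 CPM in diabetes 1.

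Curcumin-treated libraries were first set against those of untreated diabetes. *Hmgcs1* averaged 81.8 ± 13.7 CPM with curcumin and 194 ± 109 CPM in untreated diabetes (SD, n = 2 each), a fitted log2 fold change of −1.28 (SE 0.65). *Lss* averaged 28.5 ± 5.13 against 51.6 ± 27.1 CPM (−0.89, SE 0.61), *Dhcr7* 10.9 ± 8.15 against 26.2 ± 24.2 CPM (−1.39, SE 1.00) and *Idi1* 17.9 ± 1.03 against 21.7 ± 3.19 CPM (−0.30, SE 0.49). The other 3 had positive fitted values. *Srebf2* averaged 183 ± 22.5 against 138 ± 135 CPM (0.48, SE 0.82), *Fdft1* 133 ± 43.5 against 108 ± 91.6 CPM (0.37, SE 0.74) and *Sqle* 46.6 ± 10.6 against 45.0 ± 35.3 CPM (0.09, SE 0.64, and −0.04 with upper-quartile scaling). None of the 7 passed the threshold of 0.05, with adjusted p from 0.852 to 0.988 in edgeR's quasi-likelihood test. The same test called 0% of the 29855 genes, with 696 at an unadjusted p under 0.05, none of them among the 7. DESeq2 called 95 genes, 0.318% of those tested, and limma-voom 0, and neither called any of the 7.

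Both curcumin-treated libraries lay below both diabetic libraries for 3 of the 7 genes, *Hmgcs1*, *Lss* and *Idi1*, against a background of 9.72% of all tested genes, and in 0 of 7 did they lie above, against 17.9%. Without diabetes 1 they lay above diabetes 2 for 3 of 7, against 42.3% of tested genes. The count above was 0 of 7 without diabetes 2 (36.3% of tested genes), without curcumin-treated 1 (31.3%) and without curcumin-treated 2 (34.4%). With TMM-scaled CPM only *Hmgcs1* had both curcumin-treated libraries below both diabetic ones. The share over all tested genes was not computed for TMM-scaled CPM, here or below. Without diabetes 2, chosen after seeing the data, 6 of the 7 were lower than diabetes 1 in both curcumin-treated libraries, all but *Dhcr7*, against 33.3% of tested genes. The count was 4 without diabetes 1 (28.5% of tested genes), 4 without curcumin-treated 1 (23.1%) and 3 without curcumin-treated 2 (16.3%). Fitted without diabetes 2, these differences were small. The log2 fold change was −0.41 for *Hmgcs1*, −0.07 for *Lss*, −0.03 for *Idi1*, −0.51 for *Sqle*, −0.26 for *Fdft1* and −0.25 for *Srebf2*, and 0.30 for *Dhcr7*. Without diabetes 1 the fitted values widened to −1.81 for *Hmgcs1*, −2.15 for *Dhcr7* and 2.02 for *Srebf2*, with adjusted p from 0.529 to 0.662 over the 7 in edgeR.

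**Figure D3:**
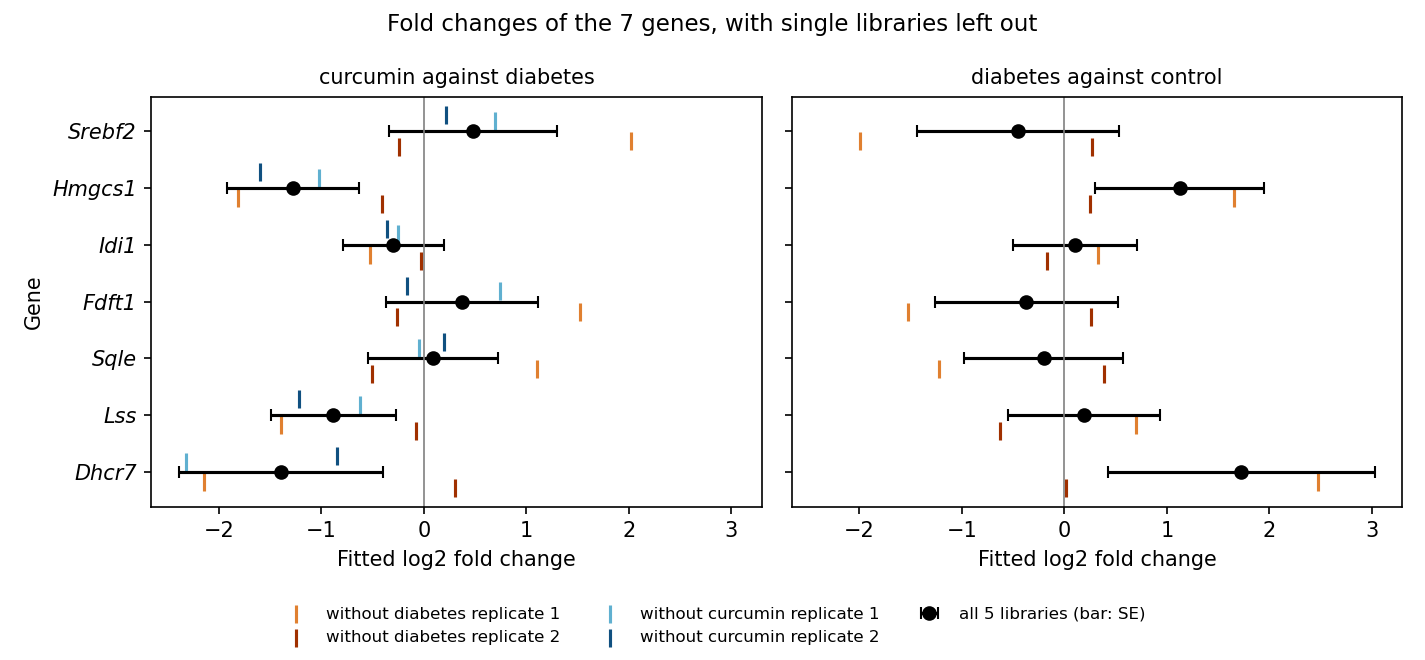
Fitted log2 fold changes of the 7 genes for curcumin against untreated diabetes (left) and diabetes against control (right), with points and bars for the fit of all 5 libraries and its SE, and ticks for fits that leave out 1 library. Without diabetes 2 the values move toward or across 0, as for *Dhcr7* from −1.39 to 0.30 on the left. Some that cross end farther from 0, as for *Sqle* from 0.09 to −0.51 on the left.

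The other cholesterol synthesis enzymes showed a similar mixture. Of 15 listed, 14 passed the filter, *Idi2* having 0 counts in every library. With curcumin 11 of the 14 had a negative fold change and 3 a positive one, with a median of −0.51, against 4 of 7 and a median of −0.30 for the 7 genes and 48.1% negative and a median of 0.05 over all tested genes. None was called. *Sc5d*, the lathosterol desaturase that feeds *Dhcr7*, had the smallest p. It stood at 38.8 CPM in the control, 58.8 and 231 CPM in diabetes 1 and 2, and 46.6 and 30.0 CPM in curcumin-treated 1 and 2, with both curcumin-treated libraries below both diabetic ones (log2 fold change −2.01, SE 0.81, adjusted p = 0.852 in edgeR). *Hsd17b7*, a sterol ketoreductase, differed by −0.81 (SE 0.56) and *Pmvk*, the phosphomevalonate kinase, by −0.98 (SE 0.71). By CPM, 2 of the 14 had treated libraries below both diabetic ones (*Sc5d* and *Hsd17b7*), against 9.72% of tested genes, and 1 had them above (*Mvd*, the mevalonate diphosphate decarboxylase), against 17.9%. With TMM-scaled CPM, examined for these lists after seeing the data, *Mvd* overlapped and *Tm7sf2* was higher without overlap.

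Read along the pathway, diabetes 2 alternated between high and low. It lay above the mean of the 5 libraries for *Hmgcs1*, *Mvk* and *Pmvk* of the mevalonate steps, for *Idi1* and *Lss*, for *Lbr*, *Hsd17b7* and *Ebp* of the steps after lanosterol, and for *Sc5d* and *Dhcr7* of the last steps. It lay below the mean for *Acat2* at the head of the chain, *Mvd* of the mevalonate steps, and *Fdps*, *Fdft1* and *Sqle* around squalene. For *Mvd*, diabetes 1 lay slightly lower still (−0.31 against −0.26 on the centred log2 scale). Also below the mean were *Cyp51*, *Msmo1* and *Nsdhl*, which act with *Hsd17b7* in the demethylation of lanosterol. So was *Tm7sf2*, which shares its reductase step with *Lbr*, at 11.3 CPM in diabetes 2 and 71.8 to 96.8 CPM elsewhere. *Nsdhl* was close to its mean there (−0.03 on the centred log2 scale) and lowest in curcumin-treated 1, at 18.8 CPM against 75.5 to 143 CPM elsewhere. The genes of this paragraph were singled out after their values were seen. No test was run along the pathway.

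**Figure D4:**
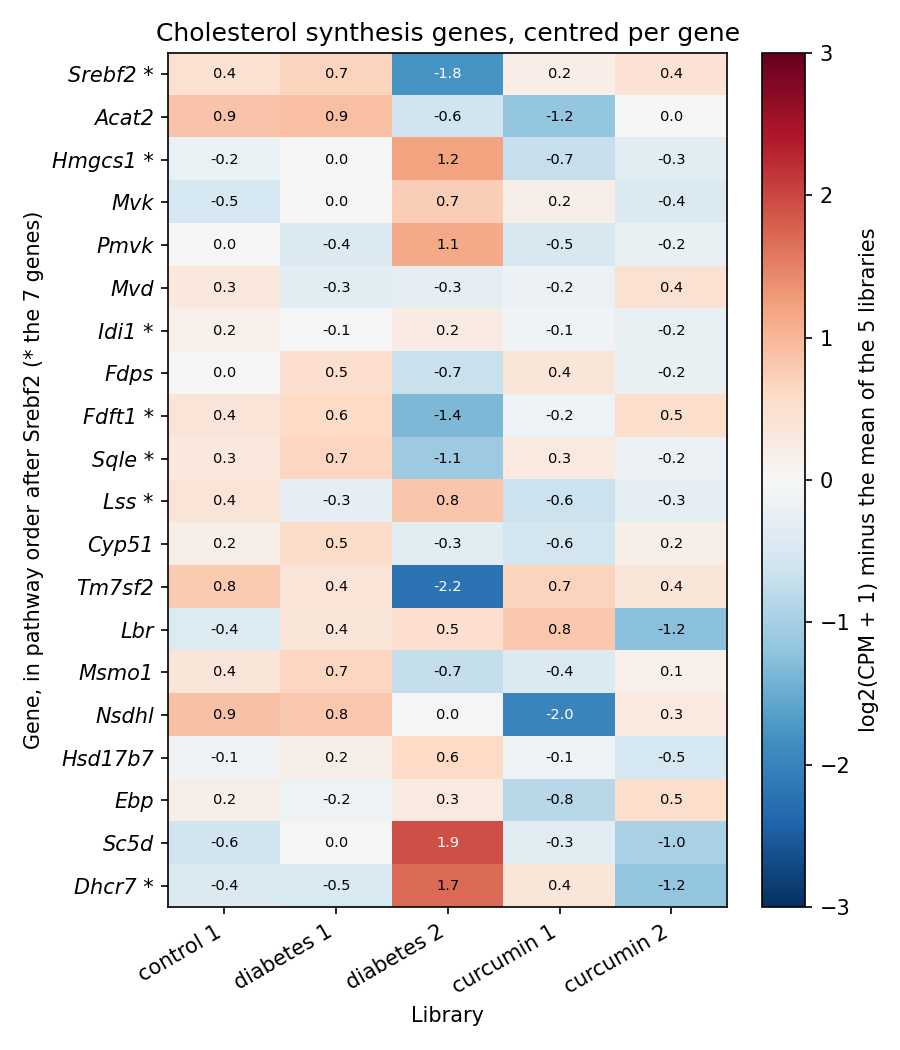
Heat map of log2(CPM + 1), centred on each gene's mean of 5 libraries, for *Srebf2* and the synthesis genes in pathway order, with the 7 genes starred. Diabetes 2 has both positive values (*Hmgcs1* 1.21, *Sc5d* 1.94) and negative ones (*Fdft1* −1.36, *Tm7sf2* −2.20).

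The second comparison set diabetes against the single control library, which has no spread of its own. *Dhcr7* differed by a log2 fold change of 1.73 (SE 1.30) and *Hmgcs1* by 1.13 (SE 0.82). The values for the rest were 0.19 (SE 0.74) for *Lss*, 0.11 (SE 0.61) for *Idi1*, −0.20 (SE 0.78) for *Sqle*, −0.37 (SE 0.90) for *Fdft1* and −0.46 (SE 0.99) for *Srebf2*. None of the 7 was called (adjusted p = 1 for all 7 in edgeR), and edgeR again called 0% of all genes, with 440 at an unadjusted p under 0.05. DESeq2 called 58 genes and limma-voom 0, none of them among the 7. *Hmgcs1* was the only gene of the 7 with both diabetic libraries above the control, against 17.3% of tested genes, and 0 of 7 had both below, against 34.5%. With TMM-scaled CPM *Dhcr7* joined it, 2 of 7. Leaving out diabetes 2 gave 0.25 for *Hmgcs1* and 0.02 for *Dhcr7*, and leaving out diabetes 1 gave 1.66 and 2.48.

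Of the 14 other enzymes, 9 had a positive value with diabetes and 5 a negative one (median 0.11, against 0.07 over all tested genes). The smallest p belonged to *Sc5d* (2.11, SE 1.06) and *Mvk*, the mevalonate kinase (1.17, SE 0.68), neither called (edgeR adjusted p = 1). Both diabetic libraries lay above the control for 4 of the 14 (*Mvk*, *Sc5d*, *Hsd17b7* and *Lbr*), against 17.3% of tested genes, and below it for 3 (*Mvd*, *Tm7sf2* and *Nsdhl*), against 34.5%.

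The third comparison set curcumin-treated diabetes against the control, which shares the control library with the second and the treated libraries with the first. Fitted values were small, from −0.69 (SE 0.72) for *Lss* to 0.33 (SE 1.22) for *Dhcr7*, and none was called (edgeR adjusted p = 1, with 0% of all genes called). *Srebf2*, *Hmgcs1*, *Sqle*, *Lss* and *Idi1* were lower than the control in both treated libraries by CPM, 5 of 7 against 34% of tested genes. Of these, *Srebf2* was lower by only 199 against 199.95 CPM in curcumin-treated 2. *Sqle* was lower by only 54.1 against 55.0 CPM in curcumin-treated 1. Both of these gaps were within counting error. With TMM-scaled CPM the count was 2 of 7, *Lss* and *Idi1*. At an unadjusted p under 0.05 there were 112 genes, DESeq2 called 77 and limma-voom 0, none of them among the 7.

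The proteins that govern SREBP2 included the gene with the smallest p of all the sterol lists. *Insig1*, an anchor of SCAP that is itself an SREBP2 target, stood at 114 CPM in the control, 113 and 262 CPM in diabetes 1 and 2, and 38.6 and 62.9 CPM in curcumin-treated 1 and 2. Both treated libraries lay below the other 3 (log2 fold change with curcumin −1.91, SE 0.70, adjusted p = 0.852 in edgeR). Its order resembled that of *Hmgcs1*. Of 8 such genes, 7 had negative values with curcumin and 0 were called (median −0.32). *Rnf139*, a ubiquitin ligase of the endoplasmic reticulum, differed by −0.68 (SE 0.48) and *Scap*, the escort of SREBP2, by 0.71 (SE 0.54). Treated libraries lay below both diabetic ones by CPM for 3 of the 8, *Insig1*, *Rnf139* and *Mbtps2*, the protease of the second cut, against 9.72% of tested genes. With TMM-scaled CPM *Mbtps2* overlapped and *Scap* was higher without overlap. With diabetes, *Insig2* differed by 1.32 (SE 0.86), *Srebf1*, the sister regulator of fatty acid synthesis, by −0.80 (SE 0.66) and *Insig1* by 0.90 (SE 0.86), none called.

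Genes of lipoprotein uptake and sterol transport (9 genes) had 7 negative values with curcumin, a median of −0.80 and 0 calls. *Vldlr*, a receptor for triglyceride-rich lipoproteins, stood at 60.8 CPM in the control, 40.6 and 200.2 CPM in diabetes 1 and 2, and 28.4 and 37.9 CPM in curcumin-treated 1 and 2 (−1.92, SE 0.89). *Lipa*, the lysosomal acid lipase that frees cholesterol from its esters, reached 403 CPM in diabetes 2 and 4.93 to 28.3 CPM elsewhere (−3.82, SE 1.74), the library that also held most macrophage and adipocyte markers. *Stard4*, a sterol carrier, was highest in curcumin-treated 1 at 49.5 CPM, against 7.94 to 14.5 CPM elsewhere (1.27, SE 0.88). Treated libraries lay below both diabetic ones by CPM for 2 of the 9, *Vldlr* and *Npc2*, against 9.72% of tested genes, and with TMM-scaled CPM for *Npc2* alone. *Npc2*, a lysosomal cholesterol-binding protein, stood at 2155 and 1568 CPM in diabetes 1 and 2, and 390 and 1552 CPM in curcumin-treated 1 and 2. The nearest libraries were thus close for both genes, for *Vldlr* at 37.9 and 40.6 CPM. Whether these gaps exceeded counting error was not tested. With diabetes, *Lipa* differed by 3.96 (SE 2.37), *Lrp1*, a large endocytic receptor, by 2.58 (SE 1.86) and *Vldlr* by 1.20 (SE 1.11), none called.

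Genes of efflux, storage and oxysterols (9 genes) had 5 negative and 4 positive values with curcumin (median −0.78) and 0 calls. *Abca1*, the exporter that loads apolipoproteins, stood at 104 CPM in the control, 123 and 355 CPM in diabetes 1 and 2, and 34.0 and 74.6 CPM in curcumin-treated 1 and 2 (−2.16, SE 0.83). *Abcg1*, its partner exporter, differed by −1.62 (SE 0.76). It stood at 32.7 CPM in the control, 35.0 and 104 CPM in diabetes 1 and 2, and 16.4 and 29.9 CPM in curcumin-treated 1 and 2. Diabetes 1 and the control were thus close for *Abcg1*, on 891 and 884 counts. Both exporters had treated libraries below the diabetic ones and diabetic libraries above the control. *Soat1*, which esterifies cholesterol, had the same order, so that 3 of the 9 were lower with curcumin without overlap, against 9.72% of tested genes. *Cyp7b1*, an oxysterol hydroxylase, had a positive value with curcumin (3.22, SE 1.28). Its treated libraries lay above the diabetic ones, at 28.3 and 2.78 CPM in curcumin-treated 1 and 2 against 2.44 and 0.788 CPM in diabetes 1 and 2. The control stood at 4.11 CPM, which only curcumin-treated 1 exceeded. Curcumin-treated 2 and diabetes 1, the nearest pair, held 118 and 62 counts, and whether that gap exceeded counting error was not tested. *Nr1h2*, which encodes the oxysterol receptor LXR-beta, also had higher treated libraries without overlap, 2 of the 9 against 17.9%, and all 5 kept their order with TMM-scaled CPM. With diabetes, *Ch25h*, the cholesterol 25-hydroxylase, differed by −3.36 (SE 1.61) on 128 counts in the control and 20 and 2 in diabetes, *Nr1h3*, which encodes LXR-alpha, by 3.63 (SE 1.84) and *Soat1* by 1.13 (SE 0.59), none called. By CPM, both diabetic libraries lay above the control for 4 of the 9 (*Abca1*, *Abcg1*, *Soat1* and *Nr1h3*), against 17.3% of tested genes. They lay below it for 3 (*Ch25h*, *Cyp7b1* and *Nr1h2*), against 34.5%.

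The branch that leads from mevalonate to protein prenylation and dolichol (6 genes) had a median of −0.05 with curcumin, 3 values on either side of 0 and 0 calls. *Nus1*, a subunit of the dolichol-making prenyltransferase, differed by −0.92 (SE 0.52), *Ggps1*, the geranylgeranyl diphosphate synthase, by −0.61 (SE 0.45) and *Pggt1b*, a prenyltransferase subunit, by 0.22 (SE 0.46). *Nus1* and *Ggps1* had treated libraries below the diabetic ones, 2 of the 6 against 9.72% of tested genes, also with TMM-scaled CPM. With diabetes, *Nus1* differed by 0.99 (SE 0.66), *Dhdds*, the other dolichol subunit, by 0.45 (SE 0.54) and *Fnta*, a farnesyltransferase subunit, by 0.31 (SE 0.58).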

How the data were processed

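The file the authors deposited is a table of unnormalised read counts for 78334 Ensembl genes in 5 libraries. Per the labels' protocols, RNA was poly-A selected, prepared with a strand-marking kit and read as paired ends. FastQC, featureCounts and GRCm39 are named in the submitters' processing notes. Aligner, annotation release and strand setting: not given in the sources used here. Symbols were matched by gene ID for 65.7% of genes. The reference at hand was GRCm38, and its coordinates served only for promoter windows and for overlaps between genes.

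Levels are CPM by library total. Genes were filtered with filterByExpr (29855 kept), scaled by TMM and fitted in a single model of 5 libraries by quasi-likelihood in edgeR 4.0.16 (R 4.3.3, robust moderation), with Benjamini-Hochberg adjustment over all tested genes and a threshold of 0.05. There were 2 residual degrees of freedom, the lone control library was given the spread of the others, and the biological coefficient of variation was 1.07. Each SE is the log2 fold change divided by the root of its F statistic. The prior count was 0.125. Intervals cover counting error only. The 7 genes and the lists were chosen with earlier results of these data known. Named genes were the 7, 3 per list with the smallest p in each of the first 2 comparisons, genes without overlap, and the 5 nearest the average profile (mean log2(CPM + 1) of 3 or more). A gene that this rule names is not reported here. Alternatives were other scalings and filters, DESeq2 1.42.0, limma-voom (limma 3.58.1), removal of 74 marker and mitochondrial genes, a GC correction (GC known for 82.7% of tested genes), a replicate block and leaving out single libraries.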

Additional observations from a re-analysis of the deposited data

How the results depend on the processing

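No call among the 7 genes changed under any alternative run, since 0 of them were called in each, with a control of 1 library and 2 residual degrees of freedom limiting what could be called. Counts over the whole table were 0 except with DESeq2, which called 95, 58 and 77 genes in the comparisons of curcumin with diabetes, diabetes with control and curcumin with control. The number of the 7 genes with treated libraries below diabetic ones was 3 by library total, against 9.72% of tested genes. It was 1 with TMM-scaled CPM and 2 without marker and mitochondrial genes, where the share over all tested genes was not computed. With a library left out it ran from 3 to 6 (6 without diabetes 2), against 16.3% to 33.3% of tested genes. Leaving out a library can only keep or raise this count, so that range does not measure stability. The median log2 fold change of the 7 in diabetes against control turned from 0.11 to −0.0545 with library totals and to −0.10 with GC correction. In curcumin against diabetes, GC correction moved the median of the 7 from −0.30 to −0.06, beside 0.02 over all tested genes. Scaling by library totals moved the median of all genes in curcumin against control from 0.17 to 0.03.

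Some fitted values changed sign. For curcumin against diabetes, *Sqle* was −0.0413 with upper-quartile scaling and *Srebf2* −0.0150 with GC correction. Leaving out a library gave ranges of −0.25 to 2.02 for *Srebf2*, −0.51 to 1.10 for *Sqle*, −0.26 to 1.53 for *Fdft1* and −2.33 to 0.30 for *Dhcr7*. For diabetes against control, *Idi1* was −0.0545 with library totals and −0.13 with GC correction, and *Lss* −0.0038 with GC correction. The ranges without a library were −1.996 to 0.27 for *Srebf2*, −1.22 to 0.39 for *Sqle*, −1.53 to 0.26 for *Fdft1*, −0.63 to 0.70 for *Lss* and −0.17 to 0.33 for *Idi1*. For curcumin against control, *Srebf2* was −0.0177 with DESeq2 size factors, −0.0228 with upper-quartile scaling, −0.01765 in DESeq2, −0.12 with library totals and −0.12 with GC correction, and *Fdft1* was 0.0271 without a low-count filter. The ranges were −0.47 to 0.10 for *Hmgcs1*, −0.53 to 0.37 for *Fdft1*, −0.60 to 0.87 for *Dhcr7* and −0.24 to 0.23 for *Srebf2*. The cause of these shifts was not tested.

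Libraries of the same number did not deviate together (correlation −0.41 across genes), so the numbers were not taken as pairs. With the replicate block 0 genes were called and *Hmgcs1* was at −1.15, and with crossed pairing, chosen after seeing the data, 0 were called.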
